A study of Mus musculus with 8 samples.

Results

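Early blood progenitors of chimeric mouse embryos at E8.5 were taken as the cells that carried transcripts of the early haematopoietic programme but few transcripts of the primitive erythroid programme. The members were selected on detected transcripts of 12 genes. A cell was counted when at least 1 unique molecular identifier (UMI) was found for at least 3 of the 6 progenitor genes Itga2b, Gfi1b, Nfe2, Ikzf1, Lyl1 and Plek, and for no more than 2 of the 6 erythroid genes Slc4a1, Epb42, Trim10, Rhag, Smim1 and Tmcc2. Of the 37211 E8.5 cells that passed the quality thresholds, 828 were members, and the whole series held 49866 such cells.

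Single-cell RNA-seq (10x Genomics, which counts UMIs at the 3′ end of transcripts) was performed on chimaeras to ask how mouse development proceeds without TET enzymes, which oxidise methylated cytosine. ES cells of 1 line with a mixed C57BL/6J-129Sv background that lack all TET genes (Tet-TKO) and express tdTomato were injected into wildtype C57BL/6J host blastocysts. The embryos were pooled and sorted into tdTomato+ Tet-TKO cells and tdTomato- WT host cells, so that E8.5 was covered by 4 Tet-TKO libraries together with 2 libraries of the WT host, and E7.5 by 1 library each. Genotype, strain background, injection and sorted fraction therefore went together in every library and cannot be told apart, and whether the libraries came from separate pools of embryos is not stated, so p-values measure only the spread between these libraries.

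In the yolk sac, blood arises from mesodermal progenitors that first express transcription factors such as Tal1, Gata1 and Runx1. The first wave consists mainly of primitive erythroid cells, which switch on embryonic haemoglobins, haem synthesis and a red cell membrane skeleton, together with smaller numbers of megakaryocytes and macrophages. Early in this programme, genes of several blood lineages can be detected in one cell.

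There were 271 Tet-TKO members, of which libraries 1 to 4 contributed 131, 113, 19 and 8. The 557 WT host members comprised 265 from library 1 and 292 from library 2. The E8.5 libraries had 65601218 to 136982886 UMIs in total, and any pair of the 8 libraries shared at most 28 cell barcodes. Tet-TKO libraries 3 and 4 stood apart, since they held 2304 and 1012 kept cells at a median of 40386.5 and 68704 UMIs per cell, whereas the other 4 libraries held 7045 to 9552 cells at 12176 to 18763 UMIs. In the members the median was 26140, 18355, 45085 and 84680.5 UMIs in the Tet-TKO and 20792 and 17149 UMIs in the WT host libraries. Because the rule counts detected genes, a deeper cell meets both of its conditions differently from a shallow cell, and results were also computed on cells thinned to an equal number of UMIs. The barcodes with the highest Scrublet scores were marked as possible doublets, at a rate set beforehand of 0.8% per 1000 barcodes. These were 0.969% to 7.80% of the barcodes of an E8.5 library and held 71 of the 828 members, 18 Tet-TKO and 53 WT host.

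The genes that chose the members are described here without a test. Itga2b, which encodes the CD41 integrin chain of megakaryocytes and early haematopoietic cells, was detected in 70.5% of mutant and 74.7% of host members. The transcription factors Gfi1b, Lyl1 and Ikzf1 reached 73.4%, 58.7% and 42.1% of the Tet-TKO members, compared with 74.7%, 62.7% and 53.1% of the WT host members. Nfe2, a transcription factor of the megakaryocytic and erythroid lineages, was seen in 88.2% of the Tet-TKO members and 63.0% of the host members, whereas Plek, a cytoskeletal adaptor of platelets and leukocytes, was found in 10.3% and 26.6%. Nfe2 and Gfi1b occurred together in 64.9% of mutant and 45.6% of host members. Most members only just met the rule, with 506 cells carrying 3 of the progenitor genes, 232 carrying 4, 80 carrying 5 and 10 carrying all 6.

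Smim1, a small membrane protein of red cells, accounted for most of the erythroid transcripts that the rule allowed, with a UMI in 94.1% of mutant and 92.8% of host members. Trim10 followed with 24% and 39.5%. Slc4a1, which encodes the band 3 anion exchanger of the red cell membrane, was found in 0 of the 271 Tet-TKO members and in 8.6% of the WT host members, and Rhag in 0 and 1.1%. Altogether 51 members carried none of the 6 erythroid genes, 313 carried 1 and 464 carried 2. Cells just outside the rule are given for comparison. Members with exactly 2 erythroid genes had a median of 1.26% (Tet-TKO) and 6.63% (WT host) of their UMIs in haemoglobin genes, and cells with 3 erythroid genes had 2.25% and 10.9%. On the other edge, cells with only 2 progenitor genes had 0.0343% and 3.64%, against 0.779% and 5.57% in members with 3.

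The label was checked with 12 blood progenitor markers that the rule did not use, and it held in part. Between 7 and 11 of them were higher in the members than in the other cells with at most 2 erythroid genes, depending on the library. Only between 4 and 8 of them were higher in the members than in cells gated by endothelial genes. Levels are given in CPM, for which the UMIs that all members of a library held of a gene were divided by their UMIs of all genes and multiplied by 1000000. Runx1, a transcription factor needed for definitive haematopoiesis, had 200, 137, 165 and 210 CPM in Tet-TKO and 116 and 112 CPM in WT host members, against means of 5.17 and 11.1 CPM in the other cells. Tal1, the master regulator of blood formation, had 124, 105, 122 and 182 CPM and 104 and 110 CPM, and Gata1, the main erythroid and megakaryocytic GATA factor, 103, 102, 54.9 and 66.0 CPM and 136 and 121 CPM. In cells gated by neural genes Tal1 reached at most 2.59 CPM and Gata1 at most 3.45 CPM. In cells gated by endothelial genes Gata1 reached at most 3.69 CPM. Tal1 was not particular to the members, with 52.3, 31.4, 84.7 and 99.4 CPM in endothelial-gated Tet-TKO and 77.8 and 96.4 CPM in endothelial-gated WT host cells. By contrast Ptprc, which encodes the pan-leukocyte marker CD45, had no UMI in any Tet-TKO library or WT host library 1 and 1.57 CPM in WT host library 2. Kit, the stem cell factor receptor, had a mean of 26.6 CPM in Tet-TKO and 14.8 CPM in WT host members against 15.4 and 12.4 CPM in the other cells. Its direction differed between libraries, since the members of Tet-TKO libraries 3 and 4 had 54.9 and 35.2 CPM against 18.9 and 18.2 CPM in the other cells and those of libraries 1 and 2 had 10.6 and 5.76 CPM against 13.4 and 11.1 CPM. Runx1 and Gata1 were also present in erythroid-gated cells, defined as cells with at least 3 of the 6 erythroid genes, at mean levels of 140 and 108 CPM in Tet-TKO and 50.4 and 123 CPM in WT host cells. The members are thus described by their rule, as cells with early blood genes, and were not distinct from the erythroid lineage.

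tdTomato matched the sorted fractions. The reporter transcript was detected in 71.0%, 52.2%, 89.5% and 100% of the Tet-TKO members. Among WT host members it was detected in 2 and 1 cells, or 0.755% and 0.342%. UMIs of Tet1, Tet2 and Tet3 remained and do not check the genotype, because UMIs at the 3′ end say nothing of deleted exons upstream. Tet1 had 6.15, 4.80, 5.49 and 8.80 CPM in Tet-TKO against 9.22 and 10.4 CPM in WT host members. The 4 Tet-TKO values were below both WT host values, a pattern found in 8.9% of all genes tested. The log2 fold change of -0.88 ± 0.30 (SE) did not pass the test (adjusted p = 0.256, edgeR quasi-likelihood test). Tet2 and Tet3 had log2 fold changes of 0.54 and 0.15, with adjusted p-values of 0.68 and 0.941 (edgeR).

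Early blood progenitors were less frequent among Tet-TKO cells than among WT host cells in every library. Tet-TKO libraries 1 to 4 contained 1.86%, 1.18%, 0.825% and 0.791% members among the kept cells, and the WT host libraries contained 3.21% and 3.23%. All 4 Tet-TKO values lay below both WT host values, with means of 1.16% ± 0.496 (SD, n = 4) and 3.22% ± 0.0160 (SD, n = 2), a 2.76-fold difference. The exact two-sided permutation test over libraries gave p = 0.133, which is the smallest value that 4 against 2 libraries allow. Thinned to 10000 UMIs per cell the shares were 0.577%, 0.689%, 0.505% and 0.683% against 2.11% and 2.77%, a 3.97-fold difference. Thinned to 5000 UMIs they were 0.207%, 0.155%, 0.314% and 0% against 0.506% and 1.09%, a 4.73-fold difference. Among unthinned cells that were not erythroid-gated the difference was 3.25-fold. A share cannot separate fewer progenitors from more cells of other kinds.

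**Figure D1:**
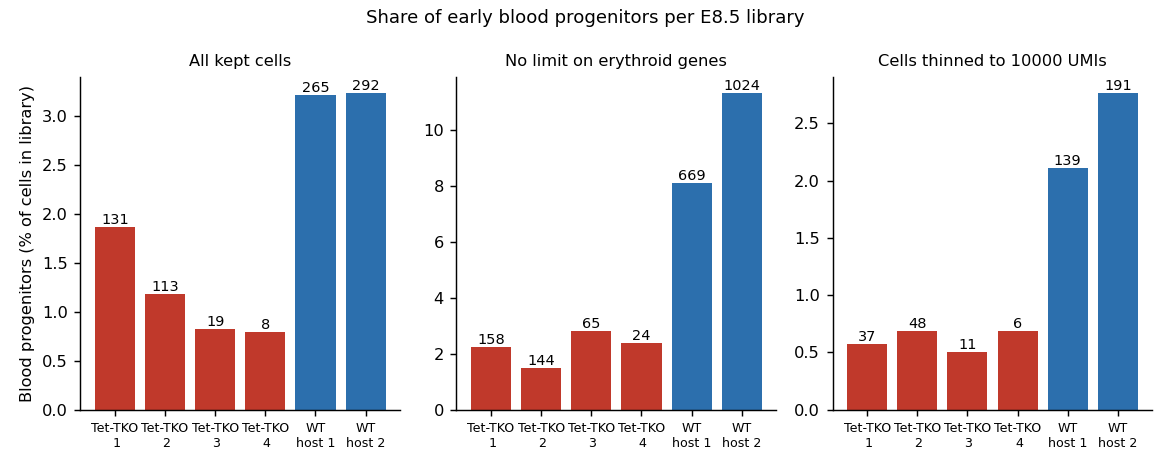
Early blood progenitors as a percent of cells (y axis, from 0) in each E8.5 library (x axis), with 1 bar per library, Tet-TKO in red and WT host in blue and the number of cells above each bar, for all kept cells (left), without the limit on erythroid genes (middle) and for cells thinned to 10000 UMIs (right, y axes differ). Among all kept cells the Tet-TKO bars lie between 0.791% and 1.86% and the WT host bars at 3.21% and 3.23%, and in each panel all Tet-TKO bars are below both WT host bars.

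The erythroid limit in the rule acted unevenly on the libraries. Of all cells with at least 3 progenitor genes, 17.1% and 21.5% exceeded the limit in Tet-TKO libraries 1 and 2, 70.8% and 66.7% did so in the deeper libraries 3 and 4, and 60.4% and 71.5% did so in the WT host libraries. The Tet-TKO libraries thus overlapped the WT host libraries in this measure, and libraries 3 and 4 were apart from 1 and 2. Without the limit the Tet-TKO libraries held 158, 144, 65 and 24 cells with at least 3 progenitor genes and the WT host libraries 669 and 1024, and the fold difference in share rose to 4.35. Erythroid-gated cells numbered 43, 83, 54 and 22 in the Tet-TKO and 923 and 1828 in the WT host libraries.

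Tet-TKO members carried little haemoglobin RNA. The median share of a member's UMIs that came from the 9 haemoglobin genes came to 0.254%, 1.45%, 0.0368% and 0.107% in the Tet-TKO and to 3.91% and 4.60% in the WT host libraries. All Tet-TKO medians lay below both WT host medians (difference of the means -3.79 percentage points, exact permutation p = 0.133, the smallest possible). Members with at least 5% haemoglobin numbered 4, 18, 1 and 0 in the Tet-TKO libraries, or 3.05%, 15.9%, 5.26% and 0% of their members. In the WT host libraries they numbered 112 and 136, or 42.3% and 46.6%. Members with less than 1% made up 40.7% to 84.2% of the Tet-TKO members and 28.3% and 33.6% of the WT host members, so both genotypes held progenitors without a strong haemoglobin signal.

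**Figure D2:**
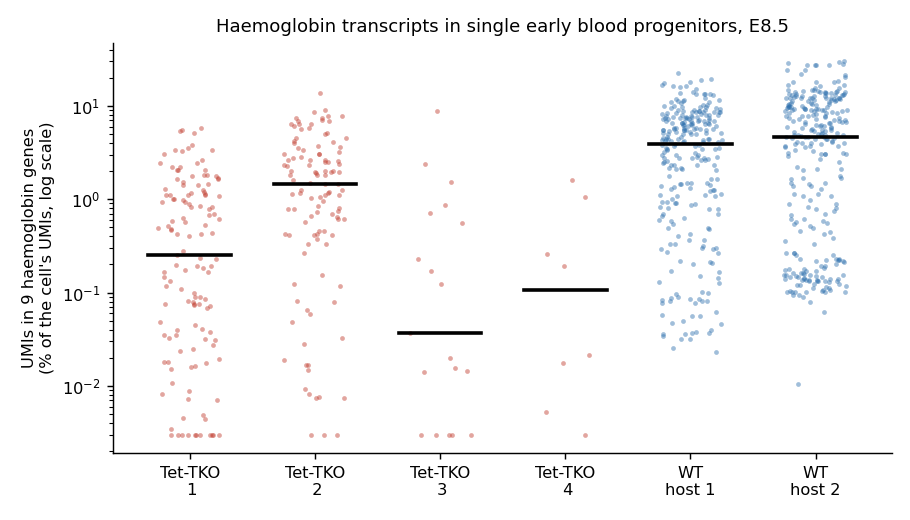
Percent of a cell's UMIs in the 9 haemoglobin genes (y axis, log scale) for each member, by E8.5 library (x axis), with 1 point per cell, Tet-TKO in red and WT host in blue, and a black bar at the library median. Cells near 0 are drawn at the lowest level, and the WT host medians of 3.91% and 4.60% lie above all Tet-TKO medians.

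The medians were also compared at an equal number of erythroid genes. Members with exactly 2 erythroid genes had medians of 0.843%, 2.53%, 0.783% and 1.07% in the Tet-TKO and 5.57% and 8.78% in the WT host libraries. In members with exactly 1 erythroid gene the medians were 0.182%, 0.664%, 0.0155% and 0.0174% against 1.21% and 0.743%, and Tet-TKO library 2 and WT host library 2 were closer to each other here than the level of free RNA in the latter, given next. Free RNA differed between the genotypes, since neural-gated cells, which should lack haemoglobin, had medians of 0.00192% or less in the Tet-TKO libraries and of 0.0521% and 0.138% in the WT host libraries. The WT host medians over all members were above these levels, but the 10 and 26 WT host members with no erythroid gene had medians of 0.0374% and 0.135%, at or below the neural-gated cells of their library. When the neural-gated level was subtracted from the genes of the red cell and transcription factor lists, 7 of the 10 genes of these lists that were called in the comparison of expression kept their call, and Hba-a2, Abcb10 and Rhd lost it (adjusted p = 0.0110, 0.0105 and 0.0162, edgeR). The log2 fold changes of Hba-a2, Abcb10 and Rhd were then -2.33, -1.20 and -7.93, against -2.40, -1.19 and -4.92 without the subtraction. The erythroid-gated cells had medians of 1.50%, 4.15%, 3.84% and 1.41% in the Tet-TKO and of 9.37% and 16.1% in the WT host libraries.

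Expression was then compared on UMI counts summed over the members of each library, for Tet-TKO libraries 1 to 3 against WT host libraries 1 and 2. Library 4, with 8 members, was left out of the fit, and its levels are printed beside the others. Only genes that passed a filter on low counts in the members were tested. A gene could pass it through a single genotype and could then only come out higher in that genotype. Genes passed the test below an adjusted p of 0.01 when their log2 fold change was also at least 1 in size. Of 10005 genes, 31 fell in Tet-TKO members, which is 0.31%, and 25 rose, which is 0.25%, or 0.56% together. At an adjusted p of 0.05 the numbers were 106 (1.06%) and 60 (0.6%), or 1.66% together. At an unadjusted p below 0.05, the background for the list counts given further on, 5.9% of the genes were lower and 5.92% higher, or 11.8% together. In all 56 called genes the 4 Tet-TKO libraries lay outside the range of the WT host libraries. They did so for 24.2% of all genes tested, with 8.9% below and 15.3% above. The reporter tdTomato was itself among the genes that rose. The number of calls rested on single libraries. Without Tet-TKO library 1, 2 genes were called lower and 0 higher, without library 2 13 and 6, and without library 3 141 and 87. Without WT host library 1 they were 13 and 8, and without WT host library 2 14 and 8. In each of these fits the 56 genes had the same sign. This adds no support, because every Tet-TKO library lay on the same side of both WT host libraries in these genes. Bulk sums cannot tell fewer cells of a type among the members from less RNA per cell.

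Genes of the 3 red cell lists accounted for 8 of the 31 genes that fell, and these lists held 9, 18 and 16 of the 10005 genes tested. Of the 8, Ank1, Ermap and Rhd passed the filter on low counts only through their level in WT host members. The lists were chosen with earlier results of these data known, so the count is a description. Among the 9 haemoglobin genes 2 fell and none rose, and 8 were below both WT host libraries in all 4 Tet-TKO libraries, a pattern found in 8.9% of all genes. The median log2 fold change of the 9 genes was -1.77, against 0.00 over all genes tested. It is only a description, because a gene could pass the filter through its level in WT host members alone. Hba-a2, an alpha-globin gene of adult red cells, had 89.4, 191, 129 and 135 CPM in Tet-TKO and 536 and 817 CPM in WT host members. It fell by 2.40 ± 0.32 on the log2 scale (SE, adjusted p = 0.00955, edgeR). The adult-type beta-globin gene Hbb-bt had 29.9, 28.3, 35.2 and 7.34 CPM against 115 and 82.8 CPM and fell by 1.77 ± 0.19 (adjusted p = 0.00317, edgeR). The Tet-TKO values of both genes were well separated from the WT host values.

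The embryonic globins, which dominate primitive red cells, varied more between the Tet-TKO libraries and did not pass the test. The embryonic alpha-like gene Hba-x had 2383, 8854, 2085 and 145 CPM in Tet-TKO and 22975 and 28935 CPM in WT host members (log2 fold change -2.59 ± 0.59, adjusted p = 0.0792, edgeR). Hbb-bh1, the earliest beta-like gene, had 4542, 10473, 2953 and 3181 CPM against 17008 and 20464 CPM (log2 fold change -1.70, adjusted p = 0.158, edgeR). In both, Tet-TKO library 2 was the highest of the Tet-TKO libraries and remained below both WT host libraries. Hbb-y, the other embryonic beta-like gene, had 457, 2759, 879 and 70.4 CPM against 2788 and 7038 CPM (log2 fold change -1.90, adjusted p = 0.294, edgeR), and here library 2 came close to WT host library 1. Hba-a1, another adult alpha-globin gene, had 451, 1175, 548 and 288 CPM against 1667 and 2380 CPM (log2 fold change -1.55, adjusted p = 0.12, edgeR). Without Tet-TKO library 2 the log2 fold changes of Hba-x, Hbb-bh1 and Hbb-y were -3.67, -2.43 and -3.05, and Hba-x then passed the test. Hbb-bh0 went the other way, with 46.6, 179, 59.3 and 11.7 CPM against 11.2 and 4.91 CPM (log2 fold change 3.49, adjusted p = 0.0453, edgeR). The haemoglobin genes are near-identical copies in part, and reads can be assigned to the wrong copy, so values of single genes are less certain than their sum.

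Of the 20 haem synthesis and iron genes 18 passed the filter on low counts, 3 fell and none rose, with a median log2 fold change of -1.01. A gene could pass this filter through its level in WT host members alone, so the median is only a description. Slc25a37, the mitochondrial iron importer mitoferrin 1, had 30.2, 43.7, 30.8 and 13.2 CPM in Tet-TKO and 140 and 150 CPM in WT host members. It fell by 2.12 ± 0.20 on the log2 scale (adjusted p = 0.00203, edgeR). Uros, an enzyme of haem synthesis, had 25.4, 27.9, 20.9 and 13.2 CPM against 71.4 and 74.2 CPM and fell by 1.59 ± 0.18 (adjusted p = 0.00433, edgeR). Abcb10, a mitochondrial transporter of erythroid cells, had 48.0, 41.8, 43.9 and 38.1 CPM against 100 and 94.6 CPM and fell by 1.19 ± 0.16 (adjusted p = 0.00829, edgeR). In each of these genes the highest Tet-TKO library had less than the lowest WT host library. Alas2, the first and rate-limiting enzyme of haem synthesis in red cells, had 17.3, 40.3, 13.2 and 2.93 CPM against 98.5 and 123 CPM. Its log2 fold change of -2.24 ± 0.36 missed the threshold (adjusted p = 0.0228, edgeR).

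Of the 17 red cell membrane and cytoskeleton genes 16 passed the filter, 3 fell and none rose. The 3 genes that fell passed the filter only through their level in WT host members, so no median of the list is given. Ank1, which encodes the ankyrin that anchors the membrane skeleton, had 0.559, 0.960, 3.30 and 0 CPM in Tet-TKO and 18.6 and 19.8 CPM in WT host members, and fell by 4.15 ± 0.44 on the log2 scale (adjusted p = 0.00317, edgeR). Ermap, a membrane protein that carries a blood group, had 3 UMIs in all Tet-TKO and 170 UMIs in the WT host members together. The ratio of the pooled levels was 38.3, with a 95% counting interval of 12.9 to 187 (adjusted p = 0.00243, edgeR). Rhd, the Rhesus protein gene, had 2 against 104 UMIs, a ratio of 35.1 with an interval of 9.48 to 294 (adjusted p = 0.00859, edgeR). Both genes were all but undetected in Tet-TKO members, and their fold change is known only within these limits. Not all genes of the list were lower, since Car2, the carbonic anhydrase of red cells, had 697 to 1055 CPM in the Tet-TKO and 676 and 701 CPM in the WT host members.

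The start regions of red cell genes that fell are shown because they share a lineage programme and GATA and KLF factors are known to act at such promoters. RefSeq promoter sequences of GRCm38.p6, cut to the 250 bases before the transcription start, were matched for 6 of the 8 red cell genes called lower and for Hemgn. Both strands were searched for the letters AGATAA, as bound by GATA factors, and for the letters CCNCNCCC, as bound by KLF factors. No printed promoter held both. Capitals mark the matches in the Rhd promoter at chr4:134864286-134864535 (plus strand, GATA motif), the Hbb-bt promoter at chr7:103813924-103814173 (minus strand, KLF motif) and the first Uros promoter at chr7:133709296-133709545 (minus strand, KLF motif), each printed 5′ to 3′.
Rhd: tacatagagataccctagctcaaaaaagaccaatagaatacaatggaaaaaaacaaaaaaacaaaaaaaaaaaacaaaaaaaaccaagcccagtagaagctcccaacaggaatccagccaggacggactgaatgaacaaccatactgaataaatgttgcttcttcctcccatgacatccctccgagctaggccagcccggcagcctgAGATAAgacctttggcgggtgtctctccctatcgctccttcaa
Hbb-bt: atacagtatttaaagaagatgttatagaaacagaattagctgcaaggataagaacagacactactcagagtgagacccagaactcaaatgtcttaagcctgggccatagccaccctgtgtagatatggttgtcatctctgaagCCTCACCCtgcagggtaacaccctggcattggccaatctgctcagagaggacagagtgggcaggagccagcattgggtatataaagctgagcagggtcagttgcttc
Uros: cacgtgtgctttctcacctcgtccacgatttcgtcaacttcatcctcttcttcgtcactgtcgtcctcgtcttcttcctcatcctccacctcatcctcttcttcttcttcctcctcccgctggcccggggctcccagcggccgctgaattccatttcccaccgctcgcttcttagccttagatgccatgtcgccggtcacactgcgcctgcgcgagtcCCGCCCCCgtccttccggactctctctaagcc
Among the 7 promoters of the 6 red cell genes, 1 held the GATA motif and 2 held the KLF motif, which were those printed. The Hemgn promoter, which is not in this count, held 4 overlapping KLF matches and no GATA motif. Among all 32851 promoters given, 9.99% held the GATA and 45.9% the KLF motif, and of the 9863 promoters of tested genes 5.55% and 64.2% did. In the 40 promoters of the 30 red cell list genes that were tested and matched, the shares were 17.5% and 60.0%. A match is a description of these letters and not of binding.

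Haematopoietic transcription factors did not move together. Of the 25 on the list 22 passed the filter, 1 fell and 1 rose, and their median log2 fold change was 0.09. Spi1, one of these genes, passed the filter only through its level in WT host members. Myb, which keeps haematopoietic progenitors proliferating and is switched off in maturing erythroid cells, had 88.0, 78.3, 82.4 and 116 CPM in Tet-TKO and 29.4 and 28.3 CPM in WT host members. It rose by a log2 fold change of 1.44 ± 0.16 (adjusted p = 0.00416, edgeR), and every Tet-TKO library was well above both WT host libraries. Hemgn, a nuclear factor of haematopoietic and erythroid cells, had 3.35, 4.32, 7.69 and 7.34 CPM against 21.3 and 36.5 CPM and fell by 2.76 ± 0.35 (adjusted p = 0.00751, edgeR). The erythroid factor Klf1 had 31.0, 43.7, 15.4 and 7.34 CPM against 108 and 103 CPM. Its groups did not overlap, a pattern found in this direction in 8.9% of all genes. Its log2 fold change of -1.79 ± 0.30 missed the threshold (adjusted p = 0.0293, edgeR).

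Factors that start the blood programme did not pass the test in either direction. The log2 fold change was 0.47 for Runx1, 0.04 for Tal1, -0.59 for Gata1 and -0.08 for Lmo2, a partner of Tal1, with adjusted p-values of 0.391, 0.956, 0.462 and 0.954 (edgeR). Runx1 was higher and Gata1 lower in all 4 Tet-TKO libraries than in both WT host libraries, patterns found in 15.3% and 8.9% of all genes. Gata2, the GATA factor of early progenitors, had 26.0, 8.64, 25.3 and 14.7 CPM against 10.8 and 10.8 CPM (log2 fold change 0.79, adjusted p = 0.502, edgeR), and Tet-TKO library 2 lay below the WT host libraries. Hhex, a homeobox factor of haemangioblasts, had 75.1, 74.4, 143 and 131 CPM against 27.1 and 37.7 CPM (log2 fold change 1.42, adjusted p = 0.0339, edgeR).

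**Figure D3:**
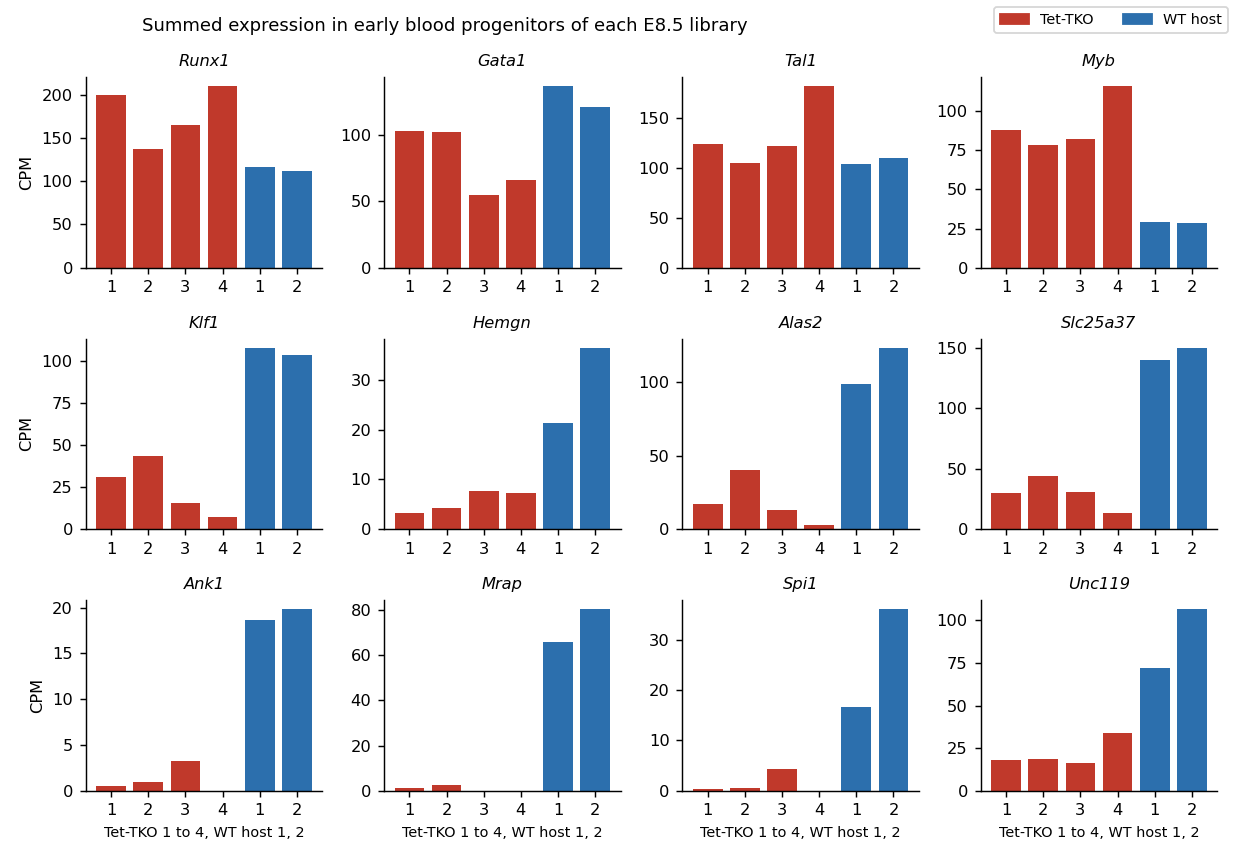
Level of 12 genes in the summed members (y axes, CPM, from 0, differing between panels) of each E8.5 library (x axes), with 1 bar per library, Tet-TKO libraries 1 to 4 in red and WT host libraries 1 and 2 in blue. Myb is higher in all 4 Tet-TKO libraries, at 78.3 to 116 CPM against 29.4 and 28.3 CPM, while the bars of Klf1, Hemgn, Alas2, Slc25a37, Ank1, Mrap, Spi1 and Unc119 are lower in all 4.

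Cytokine receptors showed no call. Of 16 receptors and ligands 10 passed the filter, 0 were called by edgeR or DESeq2, 2 were lower and 1 higher at an unadjusted p below 0.05, and the median log2 fold change was -0.17. Epor, the erythropoietin receptor, had 63.7, 74.9, 45 and 67.5 CPM in Tet-TKO and 85.6 and 75.6 CPM in WT host members (log2 fold change -0.43, adjusted p = 0.55, edgeR), with a narrow gap between the groups. Kit had 10.6, 5.76, 54.9 and 35.2 CPM against 15.6 and 13.9 CPM (log2 fold change 0.23, adjusted p = 0.943, edgeR). Tet-TKO libraries 3 and 4 were above and libraries 1 and 2 below the WT host libraries in Kit.

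No myeloid gene passed the test, and 7 of the 9 tested had a negative log2 fold change. The summed level of 6 myeloid genes (Spi1, Csf1r, Fcer1g, Tyrobp, Laptm5 and Coro1a) was 3.91, 6.24, 20.9 and 13.2 CPM in Tet-TKO and 59.0 and 181 CPM in WT host members. Every Tet-TKO library lay below both WT host libraries (exact permutation p = 0.133, the smallest possible), and the WT host libraries differed from each other by more than any Tet-TKO library did from the next. At least 3 of the 6 genes were found in 0, 2, 1 and 0 Tet-TKO members and in 17 and 43 WT host members. In neural-gated cells the same sum was between 3.08 and 7.61 CPM, and the Tet-TKO member sum was below that of the neural-gated cells of its own library in library 1 (3.91 against 4.41 CPM) and above it in libraries 2 (6.24 against 3.59 CPM), 3 (20.9 against 3.08 CPM) and 4 (13.2 against 3.45 CPM). Summed over all 20 myeloid and immune genes the levels were 17.6, 20.6, 84.6 and 77.8 CPM against 84.0 and 233 CPM, and here Tet-TKO library 3 lay above WT host library 1. Mpo, the myeloperoxidase of granulocyte precursors, had 2.79, 6.72, 9.89 and 22 CPM against 1.42 and 2.55 CPM (log2 fold change 1.42, adjusted p = 0.387, edgeR). It was above both WT host libraries in all 4, as were 15.3% of all genes. Spi1, the master factor of myeloid cells known as PU.1, had 6 UMIs in all Tet-TKO and 278 UMIs in the WT host members. Its log2 fold change of -4.80 ± 0.68 missed the threshold (adjusted p = 0.0126, edgeR). Of the 20 genes 9 passed the filter, some of them only through their level in WT host members, so no median is given. None was called by edgeR, against 5 called lower by DESeq2, which called 81 of all 10005 genes lower. At an adjusted p of 0.05 4 were lower (1.06% of all genes), and at an unadjusted p below 0.05 6 were lower and 1 higher (edgeR). A gene that passed the filter only through WT host members could only come out lower, so no conclusion is drawn from these counts.

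Without the members that had at least 3 of the 6 myeloid genes, 757 members in the fit remained, all 56 called genes kept their call, and 44 genes were called lower and 29 higher. The sum of the 6 genes was then 7.68 CPM in Tet-TKO and 35.8 CPM in WT host members, since cells with 1 or 2 of them remained. This comparison was added after the myeloid levels had been seen.

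Megakaryocyte and endothelial genes overlapped between the genotypes. The sum of 6 megakaryocyte genes was 17.6, 31.2, 74.7 and 134 CPM in Tet-TKO and 28.4 and 112 CPM in WT host members (exact permutation p = 1). Of 23 megakaryocyte and platelet genes 13 passed the filter, with a median log2 fold change of -0.13. None was called by edgeR and 1 was called lower by DESeq2, and at an unadjusted p below 0.05 2 were lower and 2 higher (edgeR). Pf4, the platelet factor 4 chemokine, had 3.07, 2.88, 1.10 and 7.34 CPM against 8.86 and 55.9 CPM (log2 fold change -3.61, adjusted p = 0.0819, edgeR), and most of its WT host signal came from library 2. The sum of 6 endothelial genes was 63.7, 42.7, 216 and 136 CPM against 56.9 and 84.8 CPM (exact permutation p = 0.667). Tet-TKO libraries 3 and 4 had the highest endothelial sums, as they had the deepest cells. Kdr, the VEGF receptor of haemangioblasts and endothelium, had 16.8, 13.4, 102 and 39.6 CPM against 18.1 and 23.4 CPM (log2 fold change 0.66, adjusted p = 0.799, edgeR). Of the 20 endothelial genes 19 passed the filter, 0 were called by edgeR or DESeq2, 1 was lower and 2 were higher at an unadjusted p below 0.05, and the median log2 fold change was 0.34.

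Genes outside the blood lists were among the largest changes. Mrap, Nxpe2, Smim5, Plac8 and Gm42047 passed the filter on low counts only through their level in WT host members. They could only come out lower, so their tests are given as a description. Mrap, an accessory protein of melanocortin receptors, had 1.12, 2.40, 0 and 0 CPM in Tet-TKO and 66.1 and 80.5 CPM in WT host members, and fell by 5.76 ± 0.36 on the log2 scale (adjusted p = 0.000418, edgeR). Nxpe2 had 0.559, 1.44, 0 and 4.40 CPM against 46.3 and 48.3 CPM and fell by 5.95 ± 0.37 (adjusted p = 0.000418, edgeR). Both were more abundant still in erythroid-gated WT host cells, with means of 155 and 116 CPM, against 6.82 and 10.7 CPM in erythroid-gated Tet-TKO cells. Smim5, a small membrane protein, fell by 3.88 ± 0.45 from 15.9 and 14.7 CPM to between 0 and 2.93 CPM (adjusted p = 0.00473, edgeR), and Plac8 fell by 3.81 ± 0.40 from 14 and 11.6 CPM to between 0 and 1.10 CPM (adjusted p = 0.0030, edgeR). Gm42047, an unnamed transcript, had 2 UMIs in all Tet-TKO and 189 UMIs in the WT host members, a ratio of 63.8 with a 95% counting interval of 17.4 to 531 (adjusted p = 0.00121, edgeR).

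Dppa4, a chromatin factor of pluripotent cells, rose by a log2 fold change of 4.33 ± 0.40 (adjusted p = 0.00178, edgeR). It had 21.8, 27.4, 24.2 and 14.7 CPM in Tet-TKO and 1.59 and 0.589 CPM in WT host members. Dppa4 and C77080 passed the filter on low counts only through their level in Tet-TKO members. They could only come out higher, so their tests are given as a description. Of the 12 pluripotency genes on the list 4 passed the filter and Dppa4 alone was called by edgeR or DESeq2. At an unadjusted p below 0.05 2 were higher and 1 lower, and the other 8 were not tested, with Nanog at 0 CPM in all Tet-TKO libraries. C77080 rose from 1.24 and 1.57 CPM to 14.2, 11.5, 17.6 and 16.1 CPM (log2 fold change 3.21 ± 0.36, adjusted p = 0.00393, edgeR). Hopx, Gas7 and Gucy1a1 also rose, by log2 fold changes of 2.80, 2.17 and 1.41 (adjusted p = 0.00737, 0.00723 and 0.00427, edgeR).

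Fgf3, a growth factor ligand, had 385, 251, 143 and 293 CPM in Tet-TKO and 65.4 and 37.9 CPM in WT host members. The groups did not overlap, a pattern found in this direction in 15.3% of all genes. The log2 fold change of 2.28 ± 0.45 missed the threshold (adjusted p = 0.0473, edgeR). Of 12 FGF ligands 4 passed the filter, with 0 called by edgeR, 1 called higher by DESeq2 and 3 higher at an unadjusted p below 0.05. In erythroid-gated cells Fgf3 had means of 215 CPM in Tet-TKO and 15.3 CPM in WT host cells, and in the other cells 20.7 and 14.9 CPM.

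Several calls concerned copies of one gene or features that differ between the injected and the host cells. Rps3a1, a ribosomal protein gene, had 270, 278, 311 and 289 CPM in Tet-TKO and 4656 and 4622 CPM in WT host members. Its processed pseudogene Rps3a3 had 4509, 4520, 4404 and 4578 CPM against 398 and 185 CPM. Their sum was 4779, 4798, 4715 and 4867 CPM against 5054 and 4807 CPM, so the pair exchanged counts with little change in the total, and the call of each is uncertain. Other parent genes of copies that rose differed in this. Rps13 had 2737, 2514, 2611 and 2943 CPM against 2462 and 2415 CPM, and Rps15a had 2754, 2704, 2878 and 3417 CPM against 2527 and 2437 CPM. Neither fell, whereas Hmga1 had 135, 112, 98.9 and 99.8 CPM against 154 and 152 CPM. Processed pseudogenes made up 10 of the 25 genes that rose. Besides Rps3a3 these included Gm15459, Rps13-ps1, Gm10036 and Rps15a-ps8, with log2 fold changes of 4.21, 3.93, 3.91 and 3.71. The non-coding transcripts Gm45890, C330024D21Rik and AA465934 rose by 3.98, 3.59 and 3.56. These transcripts, Gm15459 and Gm10036 passed the filter only through their level in Tet-TKO members and could only come out higher. Gm45890 lies antisense to the Abcb10 locus, and whether the counting separated the strands is not given in the sources used here. Xist, the RNA that coats the inactive X chromosome, had 0.480 to 8.38 CPM in the Tet-TKO and 314 and 202 CPM in the WT host libraries, which were pooled from embryos of unstated sex, and the Y-linked Eif2s3y had 0 to 3.35 CPM against 14.9 and 20.2 CPM.

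Most of the called genes had the same direction in the other cells of the same libraries. Of the 31 genes that fell, 30 were also lower in the other cells with at most 2 erythroid genes, 24 of them by at least 1 on the log2 scale. Of the 25 that rose, 22 were also higher there, 20 of them by at least 1. Among all genes tested, 70.0% of those with a negative and 67.5% of those with a positive log2 fold change in the members had the same sign in the other cells, and 5.56% and 1.92% did so by at least 1. The levels of erythroid genes in the other cells include free RNA. Ahnak, Cd24a, Plin2 and Unc119 fell in the members with log2 fold changes of -2.46, -2.03, -1.62 and -2.38, while the ratio in the other cells was 0.49, -0.12, -0.003 and -0.08 on the log2 scale. Of these genes Unc119 alone passed the test of the difference between members and other cells, and the adjusted p-values of Ahnak, Cd24a and Plin2 were 0.0133, 0.0114 and 0.01003 (edgeR).

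**Figure D4:**
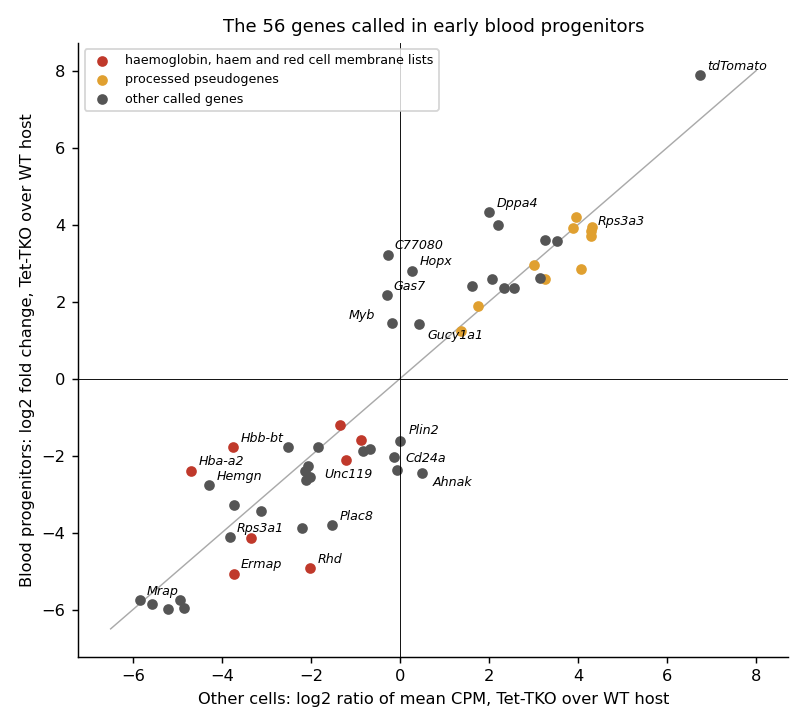
Log2 fold change between Tet-TKO and WT host in early blood progenitors (y axis) against the log2 ratio of mean CPM in the other E8.5 cells with at most 2 erythroid genes (x axis), with 1 point for each of the 56 called genes, red for the haemoglobin, haem and red cell membrane lists, orange for processed pseudogenes and grey for the others, and a grey line of equality. 52 points lie in the lower left or upper right quadrant, Myb, Gas7, C77080 and Ahnak lie outside these, and Unc119, Cd24a and Plin2 lie near 0 on the x axis and below 0 on the y axis.

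The difference between the effect in the members and that in the other cells of the same libraries was tested for all 10005 genes, with the library as a block. It passed the threshold for 4 genes, which is 0.04% (0.03% with a higher and 0.01% with a lower effect in the members), and this number was 0 without Tet-TKO library 1 or either WT host library and 37 without Tet-TKO library 3. Unc119, a lipid-binding trafficking protein, had 17.9, 18.7, 16.5 and 33.7 CPM in Tet-TKO and 72.3 and 107 CPM in WT host members, and means of 54.2 and 56.3 CPM in the other cells. The log2 fold change in the members minus that in the other cells was -2.29 (adjusted p = 0.00511, edgeR). Erythroid-gated cells, which are not among the other cells, had 14.3, 18.4, 23.7 and 21.3 CPM against 45.6 and 42.2 CPM, so Unc119 was also lower there. Hbb-y had means of 21.7 and 724 CPM in the other Tet-TKO and WT host cells, so its effect in the members was less negative by 2.82 (adjusted p = 0.00511, edgeR). Neural-gated cells, which should lack Hbb-y, had means of 4.58 CPM in Tet-TKO and 220 CPM in WT host. Its difference in the other cells therefore includes free RNA that differed between the genotypes. Rhox5, a homeobox gene of the X chromosome, had 59.5, 29.8, 36.3 and 0 CPM in Tet-TKO and 14 and 11.8 CPM in WT host members, against means of 15.4 and 139 CPM in the other cells (difference 4.54, adjusted p = 0.00705, edgeR). Erythroid-gated cells had means of 57.8 and 13.1 CPM, the same direction as the members. Apoa1, an apolipoprotein of the yolk sac endoderm, had means of 3.30 and 20.3 CPM in the members and of 8.52 and 549 CPM in the other cells, with 40.9 CPM in neural-gated WT host cells (difference 3.20, adjusted p = 0.00705, edgeR). Its level in WT host members was thus at background. The other cells mix many cell types, and the paper reports no contribution of tdTomato+ cells to extraembryonic ectoderm. How the make-up of the other cells bears on these differences was not tested.

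Markers of other cell types moved with the genotype in part. Of 10 yolk sac endoderm markers 6 passed the filter and Ttr, the thyroid hormone carrier transthyretin, fell, with 4 UMIs in all Tet-TKO and 437 UMIs in the WT host members (log2 fold change -6.00 ± 0.67, adjusted p = 0.00393, edgeR). The summed level of the 10 markers was 5.59, 3.36, 24.2 and 1.47 CPM in Tet-TKO and 156 and 62.4 CPM in WT host members. Apoa4 had no UMI in any Tet-TKO library. Ttr passed the filter only through its level in WT host members, so it could only come out lower. It was far more abundant in the other WT host cells, with a mean of 910 CPM against 19.5 CPM in the other Tet-TKO cells. Neural-gated WT host cells, which should lack Ttr, had a mean of 61.5 CPM, above the mean of 40.1 CPM in WT host members, so its level in the members was at background. Of 10 cardiomyocyte, 10 neural and 12 allantois and mesenchyme markers 6, 2 and 8 passed the filter and 0 were called by edgeR. At an unadjusted p below 0.05 2, 0 and 2 were lower, and DESeq2 called 1 cardiomyocyte marker lower. The sum of the neural markers reached 97.8 CPM in Tet-TKO library 3 and 2.93 to 28.5 CPM in the other libraries.

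**Figure D5:**
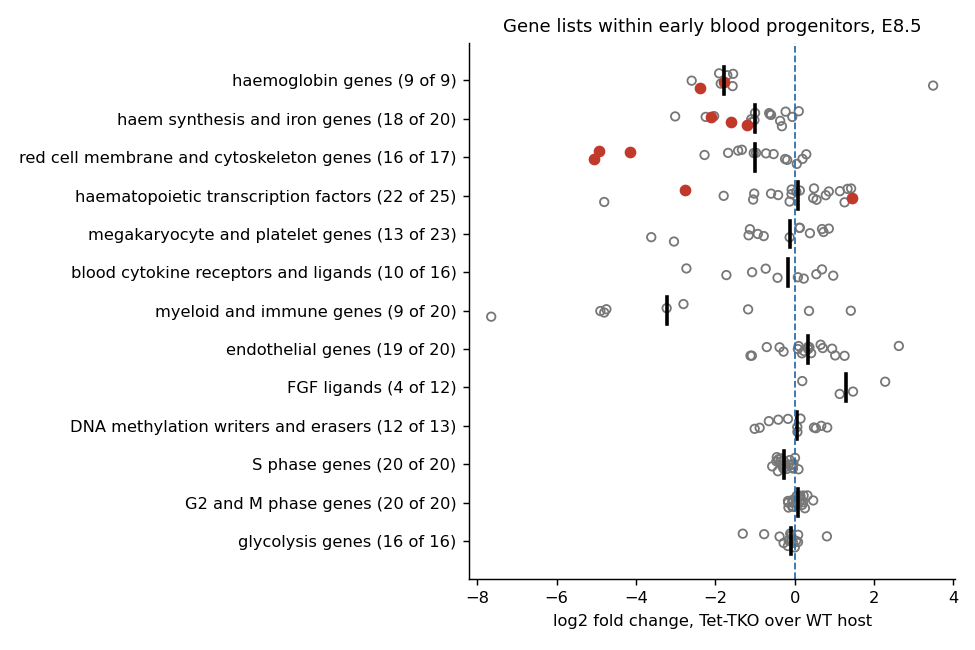
Log2 fold change between Tet-TKO and WT host members (x axis) of the genes of each list that passed the filter (y axis, 1 row per list). Filled red points passed the test, open grey points did not, the black bar is the median of the list and the dashed line is the median of all genes, with the haemoglobin and haem lists centred at -1.77 and -1.01. Genes of any list could pass the filter through WT host members alone, as did some of the red cell membrane, myeloid and transcription factor lists.

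Proliferation genes gave no call. The 20 S phase genes all passed the filter, with 0 calls by edgeR or DESeq2 and a median log2 fold change of -0.28. Of them 18 had a negative log2 fold change. At an unadjusted p below 0.05 6 were lower (edgeR), as were 5.9% of all genes. In 6 all 4 Tet-TKO libraries lay below both WT host libraries, as in 8.9% of all genes. The 20 genes of G2 and M phase had 0 calls by either tool, 1 higher gene at an unadjusted p below 0.05 and a median of 0.08. The log2 fold changes ranged from -0.57 to 0.10 in the first list and from -0.17 to 0.47 in the second. Glycolysis genes, with 16 of 16 tested, had 0 calls by edgeR, 1 called lower by DESeq2, 2 lower and 1 higher at an unadjusted p below 0.05, and a median of -0.10.

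At E7.5 the same rule found 10 of 5513 Tet-TKO cells and 138 of 7142 WT host cells. The shares were 0.181% (95% exact Clopper-Pearson interval 0.087% to 0.333%) and 1.93% (1.63% to 2.28%), a 10.7-fold difference with an interval of 5.62 to 22.7. No replicate exists at this stage, so these intervals reflect counting error and nothing else. The E7.5 members had 312 CPM of Runx1 in Tet-TKO and 250 CPM in WT host cells, and 187 and 1446 CPM of Hbb-bh1. Their median share of haemoglobin UMIs was 0.00645% and 0.0716%, below the E8.5 members of the same genotype in each library.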

How the data were processed

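UMI counts per gene and cell were produced by the authors with Cell Ranger against mm10 and the GRCm38.92 annotation with tdTomato added, and were deposited as unnormalised matrices. Barcodes were kept from 1500 UMIs upwards unless mitochondrial genes exceeded 30% or ribosomal protein genes 35% of the UMIs. Members and gene lists were chosen with earlier results of these data known. Member counts were summed per library, libraries with fewer than 10 members were left out, and sums were tested with edgeR 4.0.16 (TMM scaling, filterByExpr, quasi-likelihood test, Benjamini-Hochberg adjustment) in R 4.3.3, with DESeq2 1.42.0 as an alternative. The test was also run on simulated counts with a single dispersion for all genes. Such counts cannot show how the test behaves under the spread between these libraries. Shares and summed levels were compared by exact permutation over libraries, with the smaller one-sided p doubled (numpy 2.4.6). Counting intervals of pooled ratios were exact binomial intervals (scipy 1.17.1). Doublets were scored with Scrublet in scanpy 1.11.5 and kept in the main results. Named genes were the 12 genes of the rule, genes listed by role in the blood and TET programmes, up to 3 called genes of each list, the 10 largest called changes in each direction and the genes whose effect differed from that in other cells. Hhex, Lmo2, Car2, Hbb-bh0, Ptprc, Mpo, Nanog, Apoa4, Hopx, Gas7, Gucy1a1, Ahnak, Cd24a, Plin2, Eif2s3y and the single genes of the closing section outside these were chosen after their values were seen. The alternatives at 10000 UMIs per cell, with Tet-TKO library 4, with exactly 1 or exactly 2 erythroid genes and without members with myeloid genes were added after the data had been seen.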

Additional observations from a re-analysis of the deposited data

Results flagged for a closer look

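In 7 of 69 groups of 4 Tet-TKO libraries, 1 library lay apart from the others by more than Dixon's 95% critical value, which chance gives in about 5% of groups. The ratio of this gap to the range was 0.846 for the median haemoglobin share, where library 2 was high at 1.45%, and 0.935 for the sum of 6 neural genes, where library 3 was high at 83.5 CPM. Library 3, with 19 members, was also apart for Spi1 (0.891) and Ttr (0.915). Library 1 was apart for Rhd, with a ratio of 1 because the other 3 libraries had no UMI. Library 4, with 8 members, was apart for C330024D21Rik (0.953) and Unc119 (0.870).

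The effect of the genotype differed between the members and the other cells of the same libraries in 4 genes by edgeR's interaction test. The other cells mix many cell types, and their levels of erythroid genes such as Hbb-y include free RNA. How their make-up bears on these differences was not tested. The difference in log2 fold change was 4.54 for Rhox5, 3.20 for Apoa1, 2.82 for Hbb-y and -2.29 for Unc119.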

How the results depend on the processing

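The lower share of members and the lower haemoglobin and myeloid levels in Tet-TKO libraries kept their direction under every alternative run (16, 17 and 17 settings), as did the share at E7.5 (7 settings). The separation of the libraries did not always hold. With no erythroid gene 3 of 4 Tet-TKO libraries were below both WT host libraries in the share of members, and library 3 at 0.174% was above WT host library 1 at 0.121%. At 5000 UMIs 1 of 3 Tet-TKO libraries was below both WT host libraries in the myeloid sum (exact permutation p = 0.6), and with at least 4 progenitor genes 3 of 4 were in haemoglobin (exact permutation p = 0.267). Leaving out 1 library moved the log2 share difference between -1.79 and -1.32, the haemoglobin difference between -4.14 and -3.44 percentage points and the myeloid difference between -170 and -48.0 CPM. Counts of called genes depended on the setting, and the cause was not tested. The 31 lower, 25 higher and 4 differing genes became 2 to 141, 0 to 87 and 0 to 37 when 1 library was left out. With only 1 WT host library, its spread was taken to be that of the others. With no limit on erythroid genes they were 171, 152 and 92, with no filter on low counts 259, 140 and 215, and at an adjusted p of 0.05 106, 60 and 45. Thinned to 5000 UMIs they were 4, 4 and 19, and with an equal number of members 12, 3 and 1. DESeq2 called 81 lower and 58 higher genes, and exactly 2 erythroid genes gave 76 and 64. Exactly 1 erythroid gene gave 49 lower genes. Removing doublets left 20 lower and 0 differing genes, and summing libraries in pairs 14 higher and 0 differing genes. The differing genes numbered 28 with at least 4 progenitor genes, 31 at 10000 UMIs and 8 without members with myeloid genes. Of the 56 called genes, 55 kept their call with DESeq2, 33 with libraries summed in pairs, 40 without doublets and 32 at 10000 UMIs. Without Tet-TKO library 1 it was 2 and without library 2 it was 16. All that were tested kept their sign. Leaving out a library could hardly change it, because every Tet-TKO library lay on the same side of both WT host libraries.

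With the replicate number as a block, 216 genes were lower and 113 higher, and all 56 called genes kept their call. Tet-TKO library 3 had no WT host library of its number and so did not inform the genotype effect. This fit rested on libraries 1 and 2 of each genotype. Deviations from the genotype mean correlated by 0.214 between the libraries of number 1 and by -0.125 between those of number 2. With 2 WT host libraries, the correlations with one are the exact opposite of those with the other. The values therefore cannot decide whether the numbers pair the libraries. Under the block the log2 fold change was -0.37 for Tet3, -0.83 for Kit and -0.43 for Kdr.

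Genes that had not passed the test changed sign in some settings. Tet3 in members had -0.15 with at least 4 progenitor genes, -0.45 and -0.33 with exactly 1 and exactly 2 erythroid genes and, when 1 library was left out, -0.37 to 0.45. Tal1 in members had -0.30 at 5000 UMIs, -0.30 with an equal number of members, -0.11 with exactly 2 erythroid genes, -0.00947 without members with myeloid genes, -0.00196 with no filter and, when 1 library was left out, -0.034 to 0.094. Kit in members had -0.62, -0.23 and -1.30 with at least 4 progenitor genes and with exactly 1 and exactly 2 erythroid genes, and, when 1 library was left out, -0.79 to 0.71. Kdr in members had -0.68, -0.78 and -0.68 in these settings, -1.12 at 10000 UMIs and, when 1 library was left out, -0.45 to 1.14. Epor in members had 0.053 with at least 4 progenitor genes and 0.052 with exactly 1 erythroid gene.

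With library totals alone the median log2 fold change of all genes was 0.089. At E7.5 no Tet-TKO member was left at 5000 UMIs, so no value was obtained, and the fit over members with no erythroid gene was not run. The small numbers of members in Tet-TKO libraries 3 and 4 limited the depth of their summed counts.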

Other observations

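Genes that write or erase DNA methylation were also measured in the members. Of 13 genes on the list 12 passed the filter, and 0 were called by edgeR, with 4 lower and 1 higher at an unadjusted p below 0.05, which 5.9% and 5.92% of all genes met, and 1 called lower by DESeq2. Their median log2 fold change was 0.07, against 0.00 over all genes tested. Tdg, the glycosylase that removes oxidised methylcytosine, had a log2 fold change of -1.01 (adjusted p = 0.0216, edgeR).

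Imprinted genes, which are expressed from 1 parental copy, had a median log2 fold change of 0.49 over the 18 of 20 that passed the filter. None was called by edgeR, 1 was called lower and 2 higher by DESeq2, and at an unadjusted p below 0.05 1 was lower and 6 were higher (edgeR), against 5.9% and 5.92% of all genes. Zdbf2 had a log2 fold change of 2.10, Snrpn 1.14 and Cdkn1c -1.82 (adjusted p = 0.0126, 0.0339 and 0.0176, edgeR). None of the 12 germline genes passed the filter, and their sum was 3.36 to 6.59 CPM in the Tet-TKO and 2.30 and 2.36 CPM in the WT host members.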
